A study of Mus musculus with 24 samples.

Results

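The exons described here are skipped (cassette) exons longer than 60 bases whose length is a multiple of 3, so that an mRNA that leaves one out keeps its reading frame wherever the exon is coding. They were chosen by the length of the middle exon alone, and no measured value entered the choice. They make up 1869 of the 4636 skipped-exon events and of the 8935 splicing events of all kinds in the deposited tables. They hold 1760 distinct middle exons in 1315 named genes, and 128 of the events carry no gene name. The neighbouring classes are 2233 skipped exons above 60 bases that shift the frame and 534 skipped exons of up to 60 bases.

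The tissue was mouse brain of postnatal day 9, taken just behind the thalamus with the cortex removed. The brains were Celf6 knockout (KO) or wild type (WT), and RNA of 2 kinds was taken. The labels do not say which TRAP and input libraries share a brain. TRAP RNA was pulled down on tagged, translating ribosomes of serotonin cells through a serotonin-cell TRAP allele that the KO and WT TRAP brains both carried, and input RNA was the total RNA of the tissue. The groups were KO TRAP (n = 5), WT TRAP (n = 5), KO input (n = 5) and WT input (n = 3 here), with replicates 1 to 3 from a first sequencing run and 4 and 5 from a second. The strain and the deleted part of Celf6 are not given in the sources used here. The gene counts of WT input 2 and 3 differed by a chi-square per gene of 1.37, against 1.39 to 2.67 for repeat runs of 1 library and 26.2 to 95.4 for other pairs within a group, and the 2 were averaged as 1 sample, while WT input 4, which the submitters name as an outlier, was not used. The p-values of KO against WT within 1 RNA kind measure the spread between these brains as labelled. Those of TRAP against input and of the interaction take all 18 libraries as independent. Where TRAP and input share brains, they do not measure the spread between brains.

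CELF6 belongs to a family of RNA-binding proteins known to bind GU-rich RNA in introns and untranslated regions, where several members steer exon choice or mRNA stability. A cassette exon whose length is a multiple of 3 adds or removes a stretch of peptide, which is how many neuronal proteins gain or lose a binding site or a membrane anchor. The values are percent spliced in (PSI), given by the authors as fractions from MISO, where 1 means that every informative read carries the exon and 0 that none does. The authors kept a PSI where its credible interval was no wider than 0.20. The reads behind each PSI are not in these tables, so the depth per event is unknown.

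The libraries held 3390423 to 6861963 counts on genes, and 375 to 669 of the frame-keeping exons had a PSI in any 1 library. Serotonergic neuron markers were higher in TRAP for 8 of 8 genes, with a summed level of 4302 to 9609 CPM in TRAP libraries and 173 to 270 CPM in input libraries. Oligodendrocyte markers were lower in TRAP for 6 of 6 genes, but remained at 865 to 5062 CPM in TRAP against 4743 to 11140 CPM in input. Astrocyte markers were lower in TRAP for 6 of 6 genes (121 to 786 CPM in TRAP, 623 to 1071 CPM in input), microglial for 5 of 5, GABAergic for 3 of 3, glutamatergic for 2 of 2 and choroid plexus for 2 of 2, while 3 of 4 endothelial markers were higher. Celf6 counted over the whole gene stood at 20.8 to 102 CPM in KO TRAP against 90.1 to 176 CPM in WT TRAP, and at 4.88 to 23.98 CPM in KO input against 16.3 to 102 CPM in WT input. The genotypes overlapped in both RNA kinds, in TRAP through KO TRAP 1, and counts from a part of the gene that is not deleted check nothing. In bulk RNA, fewer cells of a type and less RNA per cell cannot be told apart.

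Among PSI values that passed the authors' interval limit of 0.20, most of these exons were almost always kept or almost always left out. At equal depth that interval is wider in the middle of the scale, so the limit drops more values there. How far it shaped the shares below was not tested. Among the 356 frame-keeping events with a PSI in at least 10 of the 18 libraries, 171 (48.0%) had a mean PSI below 0.1, 142 (39.9%) above 0.9 and 43 (12.1%) in between. Of 433 frame-shifting events read in as many libraries, 37 (8.55%) lay in between, and of 101 short exons 14 (13.9%) did. Within single libraries the in-between share of the frame-keeping exons ran over 6.53 to 11.5% with a median of 9.62% in TRAP and over 8.80 to 13.1% with a median of 11.02% in input, so the ranges of the RNA kinds overlapped. The histogram of mean PSI by class shows the same 2-ended shape for all 3 classes of skipped exon.

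**Figure D1:**
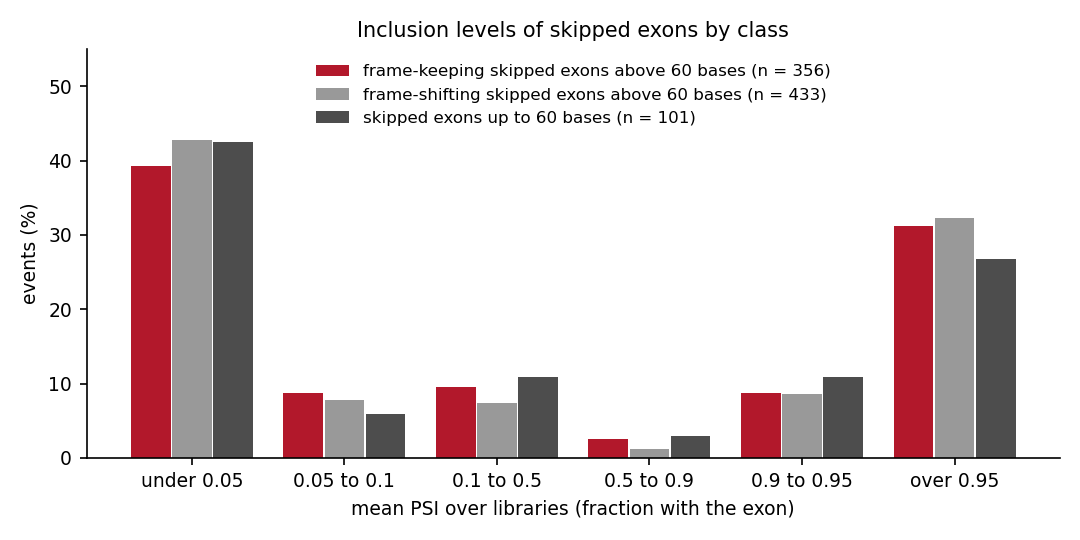
Share of events (percent, vertical axis) in each bin of mean PSI over libraries (horizontal axis, a fraction), for frame-keeping exons above 60 bases, frame-shifting exons above 60 bases and exons of up to 60 bases, for events with a value in at least 10 of 18 libraries. Among PSI values that passed the interval limit of 0.20, all 3 classes pile up at both ends, and 43 of 356 frame-keeping exons lie between 0.1 and 0.9.

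The exons at the ends of the scale differed in features that the length rule did not use. An exon with exactly the same start and end in the gene annotation of the authors' count files was found for 28.1% of the events below 0.1, for 69.8% of those in between and for 82.4% of those above 0.9. The median level of the host gene was 179 CPM below 0.1, 261 CPM in between and 162 CPM above 0.9. Over libraries, the PSI of an event spanned a median of 0.066 below 0.1, 0.299 in between and 0.052 above 0.9. Host genes that the authors' deposited table marks as CELF6 targets, because a CELF6-YFP protein could be crosslinked to and pulled down with their RNA (CLIP), carried 32.2% of the events below 0.1, 39.5% of those in between and 35.2% of those above 0.9. Of the events with a PSI in fewer than 10 libraries, 21.6% lay in such genes, against 34.3% of the events read in 10 or more libraries, and the median host gene stood at 70.9 CPM and 179 CPM in those 2 sets. No test was run on these shares.

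The lengths ran over 63 to 5970 bases with quartiles of 93, 129 and 183 bases, and 53 events had an exon over 1000 bases. Just inside the limit stood 40 events of 63 bases and 45 of 66 bases, and just outside it 25 of 60 bases and 20 of 57 bases. Their median PSI, over the few events read in at least 10 libraries, was 0.0204 at 63 bases (n = 4), 0.946 at 66 bases (n = 8), 0.497 at 60 bases (n = 4) and 0.107 at 57 bases (n = 5). These medians follow no order across the limit.

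The same exon could enter more than 1 event with different neighbouring exons. This held for 96 exons, which account for 205 events, so events are not independent. For 30 pairs of events on 1 exon with values in at least 10 libraries each, the median absolute PSI difference between the 2 events was 0.00085 to 0.161, with a median of 0.0094, and 29 of the 30 pairs were under 0.05. The exception was a 180-base exon of Anks1b, a scaffold protein of the postsynaptic density, at chr10:90897247-90897426 (mm10, plus strand), with a mean PSI of 0.974 in 1 event and 0.811 in the other.

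The exons between the ends include several of the best known in the brain. Mbp encodes myelin basic protein, which compacts the myelin sheath, and its alternative exons give the protein its isoforms. The 78-base Mbp exon at chr18:82561778-82561855 (plus strand) had a mean PSI of 0.343 over 18 libraries. Its PSI was 0.442, 0.369, 0.323, 0.309 and 0.397 in KO TRAP 1 to 5 and 0.278, 0.368, 0.344, 0.347 and 0.350 in WT TRAP 1 to 5. Its PSI was 0.327, 0.284, 0.315, 0.299 and 0.327 in KO input 1 to 5 and 0.409, 0.336 and 0.343 in WT input. In the input RNA every KO library was below every WT library, and in TRAP the genotypes overlapped. The 123-base Mbp exon at chr18:82578936-82579058 was kept less often, with a mean PSI of 0.189 to 0.190 in its 2 events. Mbp transcripts averaged 1048 ± 446 CPM in KO TRAP and 1399 ± 806 CPM in WT TRAP (SD, n = 5 each), against 4643 ± 654 CPM in KO input (n = 5) and 4915 ± 2062 CPM in WT input (n = 3).

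Nnat encodes neuronatin, a small membrane protein of the endoplasmic reticulum in developing neurons, and its 81-base exon at chr2:157561213-157561293 (plus strand) is the known difference between its long and short forms. In the first of its 2 events the PSI averaged 0.205 ± 0.088 in KO TRAP and 0.238 ± 0.094 in WT TRAP (SD, n = 5 each). It averaged 0.280 ± 0.071 in KO input (n = 5) and 0.234 ± 0.017 in WT input (n = 3). The libraries of all 4 groups overlapped. Ybx1, a cold-shock RNA-binding protein, had a 90-base exon with a mean PSI of 0.340 over 16 libraries, at 0.211 to 0.443 in TRAP and 0.242 to 0.632 in input. Son, a splicing co-factor of nuclear speckles, had the longest frame-keeping exon, 5970 bases at chr16:91654611-91660580 (plus strand), with a PSI of 0.111 to 0.333 in TRAP and 0.133 to 0.440 in input.

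Exons of some splicing proteins were also in the middle range, while the Srrm1 and Hnrnpk exons named further below averaged under 0.1. Srsf3, an SR protein that promotes exon inclusion, has a 456-base exon at chr17:29039454-29039909 (plus strand), known as a poison exon because it carries a stop codon. It averaged 0.116 ± 0.086 in TRAP (SD, n = 10) and 0.108 ± 0.048 in input (n = 8). A length divisible by 3 therefore does not mean that the exon is translated through. Hnrnpa1, an hnRNP protein known to repress exons, kept its 159-base exon at 0.150 ± 0.066 in TRAP (n = 10) and 0.148 ± 0.061 in input (n = 7). The synaptic genes Dnm1, the dynamin of synaptic vesicle retrieval, and Prkcb, a calcium-dependent protein kinase, held exons of 135 and 216 bases with mean PSI of 0.124 and 0.150. An unnamed 801-base exon within Ncam1, the neural cell adhesion molecule, had a mean PSI of 0.858.

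Mapt, which encodes the microtubule-binding protein tau, held exons at both ends of the scale. Its 87-base exon at chr11:104287123-104287209 (plus strand) had a mean PSI of 0.094 over 18 libraries and its 66-base exon at chr11:104294859-104294924 one of 0.972. Its 198-base and 711-base exons stayed at means of 0.0225 and 0.00405. For the 87-base exon, the PSI was 0.0272, 0.217, 0.117, 0.152 and 0.186 in KO TRAP 1 to 5 against 0.0533, 0.0705, 0.0213, 0.0840 and 0.0606 in WT TRAP 1 to 5. KO TRAP 1 lay among the WT libraries and the other 4 KO libraries above them, and limma gave an adjusted p of 0.881.

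**Figure D2:**
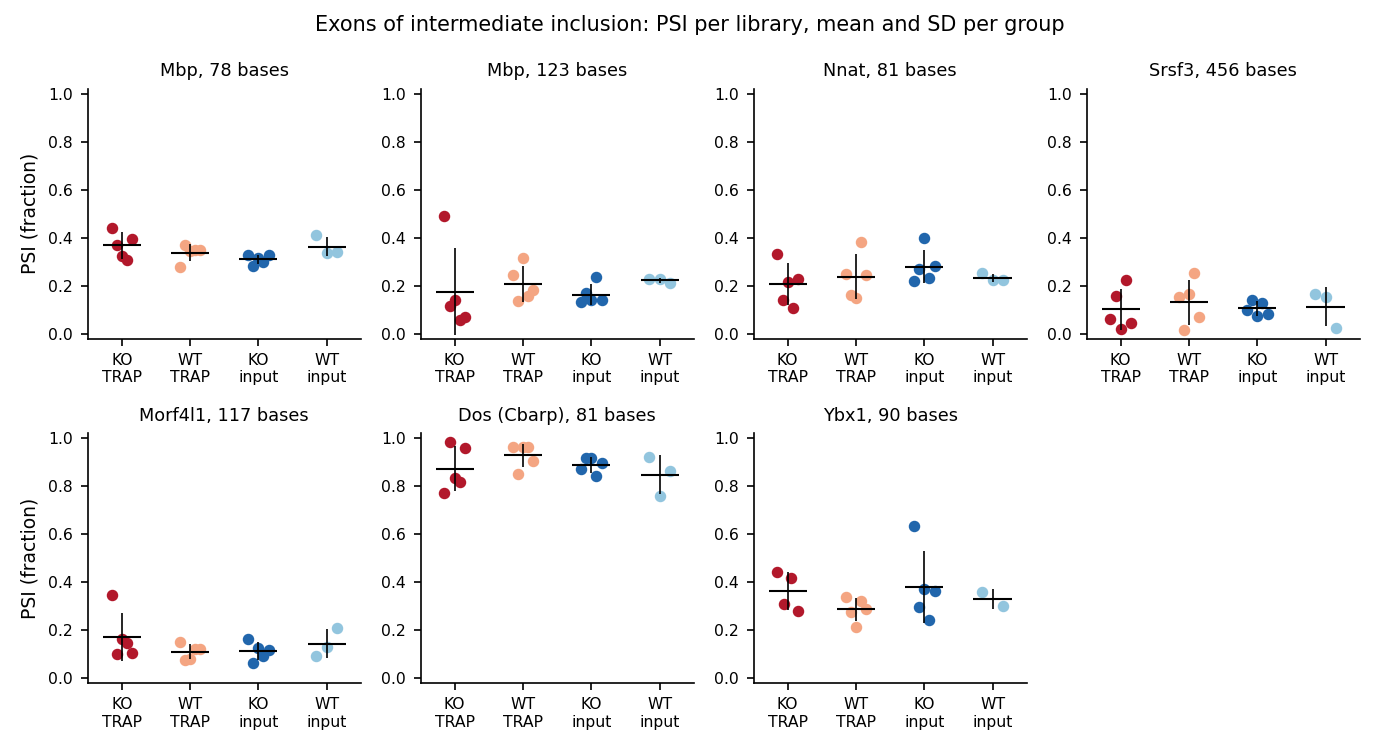
PSI (fraction, vertical axis) of 7 frame-keeping exons with a mean PSI between 0.1 and 0.9, 1 panel per exon, by group on the horizontal axis (KO TRAP, WT TRAP, KO input, WT input), with 1 point per library and black lines for the mean and SD. The groups overlap in each panel but the 78-base Mbp exon in input, whose libraries keep to 0.278 to 0.442 over all groups.

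A small group of exons was read as nearly absent in 1 library and nearly always kept in another. Of the 1251 frame-keeping events with values in at least 2 libraries, 56 (4.48%) had a PSI below 0.1 in 1 library and above 0.9 in another, and 105 (8.39%) had values on both sides of 0.5. The first count was 54 of 1468 (3.68%) among frame-shifting exons and 2 of 335 (0.597%) among short exons. These 56 events had a PSI in a median of 3 libraries and in 13 at most. The interval limit of 0.20 drops values in the middle of the scale more readily, so values in between may be missing for these events. Its part in these shares was not tested. No test was run on these shares, and the examples that follow were chosen for their spread.

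The widest coverage among them was the 3381-base exon of Plec at chr15:76178519-76181899 (minus strand), which encodes part of plectin, a giant linker of the cytoskeleton. It is a known alternative: the exon encodes the rod domain, which the rodless form of plectin lacks. Its PSI was 0.196, 0.0141 and 0.261 in KO TRAP 2, 3 and 4 against 0.255, 0.0369, 0.0689 and 0.0964 in WT TRAP 1 to 4. In input it was 0.142, 0.109, 0.948 and 0.959 in KO 1, 2, 3 and 5 against 0.0280 and 0.125 in WT 1 and 5. The 2 high libraries, KO input 3 and 5, stood apart from the other 11. Vcan encodes versican, a matrix proteoglycan whose 2 large exons carry the sugar attachment regions and are spliced in or out to give its named forms. The 2880-base exon was at 0.0794 in KO TRAP 1 and 0.958 in KO TRAP 5, and the 5217-base exon at 0.951 and 0.0810 in KO TRAP 4 and 5 in the first event of each. KO TRAP 5 was high for 1 of these exons and low for the other, and each event had a value in 4 to 6 libraries.

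Trp53bp1, a DNA repair scaffold, had a 120-base exon at 0.963 in KO TRAP 5 and at 0.0215 to 0.135 in its other 5 libraries. Cpt2, the inner mitochondrial carnitine palmitoyltransferase of fatty acid oxidation, had a 1305-base exon at 0.283, 0.947 and 0.0158 in KO TRAP 1 to 3. In Cpt2 the high and the low values thus fell within KO TRAP, and in Trp53bp1 a second KO TRAP library lay among the low values.

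The exon of Cldn25, which RefSeq names Cldnd1 (a claudin-like membrane protein), split by genotype in the libraries that had a value. This 138-base exon at chr16:58732581-58732718 (plus strand) had a PSI of 0.0379 and 0.0865 in KO TRAP 1 and 2 against 0.966, 0.975 and 0.967 in WT TRAP 1, 2 and 5, and was at 0.980 in WT input 5. No KO input library had a value. With 2 KO libraries it fell short of the 3 per genotype that the main comparison needed, and Cldn25 counts averaged 115 ± 12 CPM in KO TRAP and 122 ± 42 CPM in WT TRAP (SD, n = 5 each). When 2 libraries per genotype were allowed, limma called it lower in KO TRAP, with a log2 odds difference of -9.02 ± 0.48 (SE) and an adjusted p of 0.0333. That call rests on KO TRAP 1 and 2, both from the first sequencing run, and on an exon chosen for its spread.

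**Figure D3:**
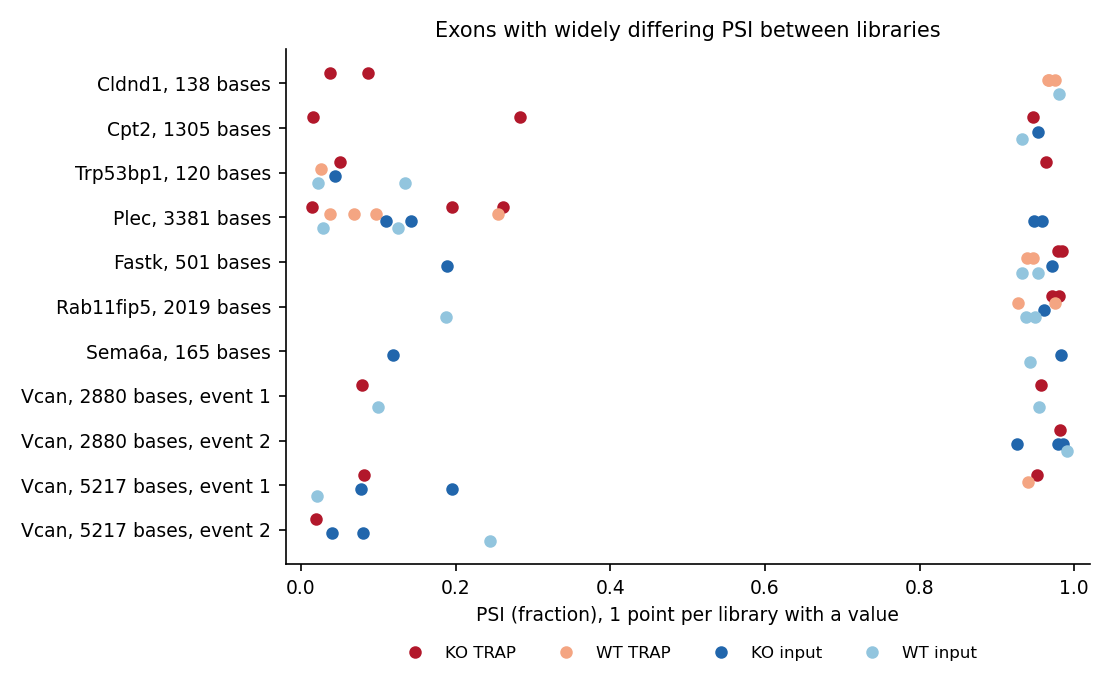
PSI (fraction, horizontal axis) of frame-keeping exons with widely differing values between libraries, 1 row per event and 1 point per library with a value, coloured by group. In Cldn25 (row Cldnd1) the KO TRAP points (0.0379, 0.0865) and WT TRAP points (0.966 to 0.975) lie at opposite ends, while in Cpt2 and Trp53bp1 both ends hold KO TRAP points.

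The first comparison was TRAP against input, which sets the RNA on ribosomes of serotonin cells beside the RNA of the whole tissue. None of the 317 frame-keeping exons tested passed limma on log2(PSI/(1−PSI)) at an adjusted p of 0.05, where 0.112% of the 1787 splicing events of all kinds did (0.056% higher and 0.056% lower in TRAP). An unadjusted p below 0.05 was reached by 23 exons (7.26%), where 9.40% of all events tested reached it. PSI was higher in TRAP for 148 of the 317 and the median difference in mean PSI was 0.0002, beside -0.0009 over all events tested. The 2 RNA kinds did not overlap for 2 exons (0.631%), where 0.560% of all events did not. No difference is therefore called between TRAP and input for any single exon, and the values below are levels.

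**Figure D4:**
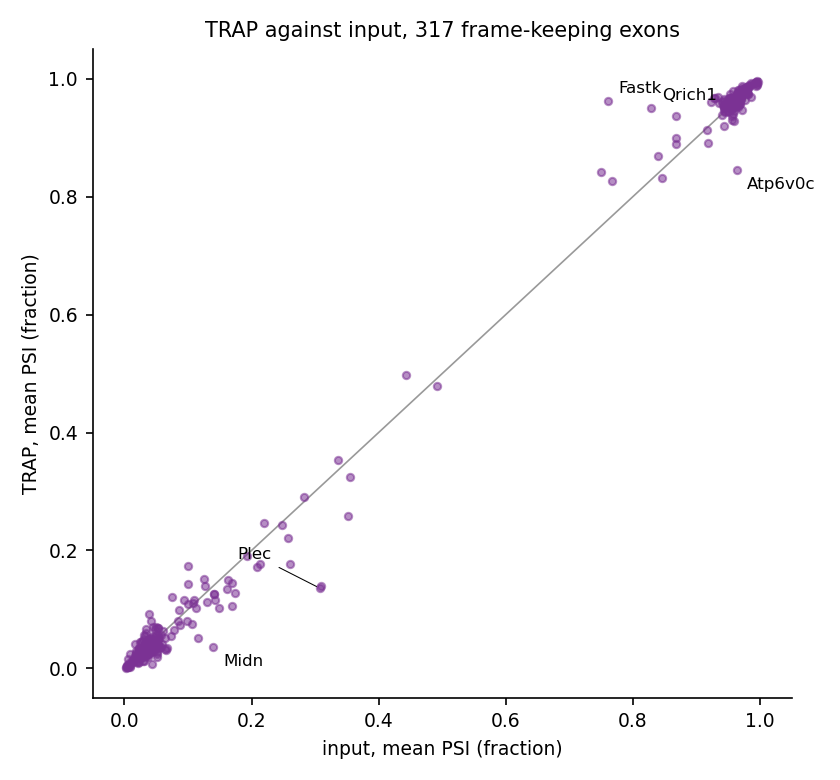
Mean PSI in TRAP (fraction, vertical axis) against mean PSI in input (fraction, horizontal axis) for the 317 frame-keeping exons tested, 1 point per event, with the names of 5 exons whose means differ by at least 0.1. Points lie along the diagonal, with Fastk and Qrich1 above it and Plec, Midn and Atp6v0c below it.

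Midn, Atp6v0c, Plec, Fastk and Qrich1 were among the exons with means at least 0.1 apart, and none of these 5 had a value in all 18 libraries. Midn, which encodes midnolin, a nuclear protein of the proteasome pathway, had a 129-base exon at chr10:80153591-80153719 (plus strand) with a PSI of 0.0236 to 0.0486 in 6 TRAP libraries. In input it was 0.118, 0.145 and 0.0253 in KO 1, 3 and 4 and 0.164 and 0.202 in 2 WT samples. All input values but that of KO input 4 were above all TRAP values, with a log2 odds difference of -1.96 ± 0.50 (SE) and a limma adjusted p of 0.207. Atp6v0c, a proton pore subunit of the vacuolar ATPase, had an 81-base exon at 0.629 and 0.899 in KO TRAP 1 and 2 and at 0.836 to 0.973 in WT TRAP, against 0.941 to 0.983 in input. Its difference was -0.111 in the first run and -0.0146 in the second. The gene counts of Atp6v0c were very low, at means of 0.758 CPM in KO TRAP and 2.94 CPM in WT TRAP. In input the means were 2.87 CPM in KO and 3.46 CPM in WT. Plec, Fastk (a mitochondrial RNA regulator) and Qrich1 (a nuclear transcription factor) differed by -0.173, 0.201 and 0.121, and in Plec and Fastk the difference followed 2 and 1 input libraries.

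The lowest adjusted p among the frame-keeping exons, 0.0975 by limma, belonged to a 102-base exon of the gene 1700037H04Rik at chr2:131149441-131149542 (minus strand) that was nearly always left out. It averaged 0.0117 ± 0.0055 in KO TRAP and 0.0086 ± 0.0050 in WT TRAP (SD, n = 5 each), and 0.0211 ± 0.0055 in KO input (n = 5) and 0.0259 ± 0.0071 in WT input (n = 3). Several of the TRAP values lay below 0.01, the floor set before the log scale. Ncs1, a neuronal calcium sensor, kept its 117-base exon at chr2:31287287-31287403 (plus strand) at 0.967 to 0.992 in TRAP (n = 10) and at 0.943 to 0.978 in input (n = 7). Its log2 odds difference was 1.08 ± 0.27 (SE) with a limma adjusted p of 0.154. Eif3k, a subunit of the translation initiation factor complex, had a 99-base exon at 0.967 ± 0.011 in TRAP (n = 8) and 0.953 ± 0.008 in input (n = 8). Gnao1, the Go alpha subunit that couples serotonin and other receptors to channels, had a 216-base exon at 0.967 ± 0.027 in TRAP (n = 10) and 0.934 ± 0.043 in input (n = 8). Their limma adjusted p were 0.224 and 0.385. These 4 exons were chosen after their values were seen, by their low p.

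Tom1l2, an endosomal trafficking adaptor, was 1 of the 2 exons whose RNA kinds did not overlap. Its 63-base exon was at 0.0502 to 0.0909 in 4 TRAP libraries against 0.0261 to 0.0460 in 5 input libraries, with a limma adjusted p of 0.385. Rtn3, a reticulon that shapes the endoplasmic reticulum, has nested exons of 1161 and 2124 bases on chromosome 19 that are known to lengthen the protein in brain forms. The 2124-base exon averaged 0.0199 ± 0.0124 in TRAP (SD, n = 10) and 0.0383 ± 0.0162 in input (n = 8) in its first event, and the 1161-base exon 0.0131 ± 0.0103 in TRAP and 0.0310 ± 0.0185 in input. The limma adjusted p were 0.401 and 0.492, and the ranges overlapped.

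Host genes were also grouped by function, and no group held a called exon. In the cytoskeleton and motor list, 21 of 86 exons could be tested between TRAP and input, 9 of them were higher and 12 lower in TRAP, and the median difference in mean PSI was -0.0022. Evl, an actin polymerisation factor, had its 63-base exon at 0.078 ± 0.064 in TRAP and 0.044 ± 0.039 in input (SD, n = 9 and 7). In the vesicle traffic list, 10 of 52 could be tested, 2 were higher and 8 lower, and the median was -0.0127. The members with the widest differences there were the Dnm1 exon, at 0.112 ± 0.065 in TRAP and 0.168 ± 0.082 in input in its second event (n = 7 each), and the 132-base exon of Erc1, an active zone scaffold, at 0.0335 ± 0.0251 in TRAP (n = 7) and 0.0654 ± 0.0395 in input (n = 4). Dnm1 enters this list with 2 events on 1 exon.

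The RNA binding and splicing list had 8 of 31 exons tested, 5 higher and 3 lower in TRAP, with a median of 0.0061. Its 3 widest differences were in Srrm1, a splicing co-activator (282 bases), Hnrnpa1 (159 bases) and Hnrnpk, an hnRNP protein (63 bases), at 0.0185, -0.0131 and 0.0091. These differences are means of the KO and WT differences, so that of Hnrnpa1 is negative although its mean over all libraries was 0.150 in TRAP and 0.148 in input. The chromatin and transcription list had 7 of 57 tested, 3 higher and 4 lower, with a median of 0.0078, and Nfix, a nuclear factor I protein of neural development, was the widest at 0.0374. The kinase and GTPase list had 5 of 51 tested, 1 higher and 4 lower, with a median of -0.0105. The ion channel and receptor list had 5 of 25 tested, 2 higher and 3 lower, with a median of -0.0002, and the adhesion list 2 of 38, with a median of -0.0086. No exon of these 7 lists was called between TRAP and input or between KO and WT in either RNA kind.

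The second comparison, KO against WT in TRAP, asked whether loss of Celf6 changed exon use on ribosomes of serotonin cells. Of 315 frame-keeping exons tested, 1 was called by limma at an adjusted p of 0.05, where 0.0537% of the 1861 events of all kinds were, and it was the only call in that comparison. An unadjusted p below 0.05 was reached by 20 exons (6.35%), where 6.02% of all events reached it. The genotypes did not overlap for 13 exons, 7 higher and 6 lower in KO (4.13% together), where 3.87% of all events did not overlap. PSI was higher in KO for 143 of the 315, and the median difference in mean PSI was -0.0009, beside -0.0008 over all events.

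The called exon was the 2859-base exon of Zhx1 at chr15:58052224-58055082 (minus strand), which the files list under both 9130401M01Rik and Zhx1. Zhx1 encodes a zinc finger and homeobox protein that represses transcription. The PSI was 0.9875, 0.9896, 0.9885, 0.9927 and 0.9936 in KO TRAP 1 to 5 against 0.956, 0.964, 0.975, 0.977 and 0.967 in WT TRAP 1 to 5. Every KO library was above every WT library. PSI rose to 0.9904 ± 0.0026 in KO TRAP against 0.968 ± 0.0086 in WT TRAP (SD, n = 5 each), a log2 odds difference of 1.57 ± 0.20 (SE) with a limma adjusted p of 0.0384. The exact permutation test gave p = 0.00794, 2-sided, the smallest that 252 splits allow. This p is not adjusted for the other events, and the exon was picked by its low limma p in the same libraries, so it is no separate support. The difference was 0.0238 in the first sequencing run and 0.0209 in the second.

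The step is small, since nearly all Zhx1 mRNA kept the exon in both genotypes, and the values of KO TRAP 4 and 5 lay above 0.99, the ceiling set before the log scale. In input the exon was at 0.967 to 0.991 in 4 KO libraries and at 0.986 in 1 WT sample, too few to test. Zhx1 itself was counted at 113 ± 60 CPM in KO TRAP and 64.6 ± 17.04 CPM in WT TRAP (SD, n = 5 each), and its part in the PSI difference was not tested. The authors' deposited table gives this event an FDR of 0.0863 in TRAP. The limma call was lost with PSI held 0.001 (adjusted p = 0.244) or 0.05 (1) from 0 and 1, without the log scale (0.281), with the sequencing run as a covariate (0.0506), and without any 1 of KO TRAP 1 to 5 or WT TRAP 2, 3 or 5 (0.0587 to 0.156).

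**Figure D5:**
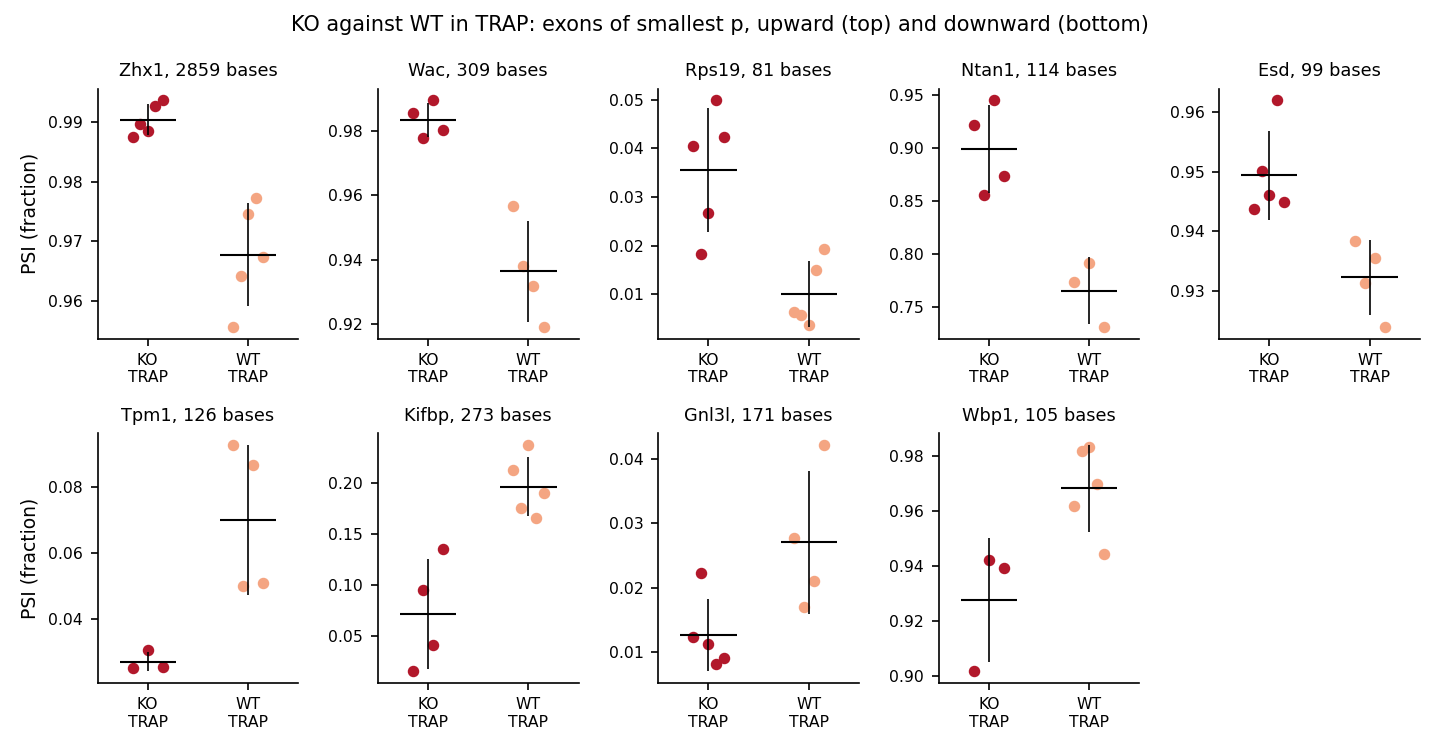
PSI (fraction, vertical axis, scaled per panel) in KO TRAP and WT TRAP libraries for exons with the lowest p in each direction, 5 higher in KO in the top row and 4 lower in the bottom row, with 1 point per library and black lines for the mean and SD. The Zhx1 points lie at 0.9875 to 0.9936 in KO and 0.956 to 0.977 in WT. The genotypes also stand apart in Wac, Ntan1, Esd, Tpm1, Kifbp and Wbp1, none of which passed the test.

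The exons next to it by p did not pass the test. Wac, a WW-domain adaptor of transcription and autophagy, had a 309-base exon at chr18:7910516-7910824 (plus strand). Its PSI was 0.986, 0.978, 0.9895 and 0.980 in KO TRAP 1, 3, 4 and 5 against 0.957, 0.938, 0.932 and 0.919 in WT TRAP 1, 3, 4 and 5. The genotypes did not overlap, and limma gave an adjusted p of 0.142 for a log2 odds difference of 2.02 ± 0.31 (SE). Ntan1, an amidase that starts N-degron protein breakdown, had a 114-base exon at 0.921, 0.856, 0.945 and 0.874 in KO TRAP 1 to 4 against 0.774, 0.792 and 0.731 in WT TRAP 2, 4 and 5. Its genotypes did not overlap in TRAP, while in input they did, at 0.740 to 0.851 in KO and 0.804 to 0.927 in WT. Rps19, a protein of the small ribosomal subunit, had an 81-base exon at 0.0355 ± 0.0127 in KO TRAP and 0.01003 ± 0.0067 in WT TRAP (SD, n = 5 each). Esd, an esterase, had a 99-base exon at 0.949 ± 0.007 in KO TRAP (n = 5) and 0.932 ± 0.006 in WT TRAP (n = 4), without overlap. The limma adjusted p of Ntan1, Rps19 and Esd were 0.589, 0.264 and 0.589.

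On the lower side in KO TRAP stood Tpm1, Kifbp, Wbp1 and Gnl3l, among others. Tpm1 encodes the actin-binding protein tropomyosin 1, whose mutually exclusive exons are a textbook case of alternative splicing. Its 126-base exon at chr9:67047786-67047911 (minus strand) had a PSI of 0.0253, 0.0307 and 0.0257 in KO TRAP 1, 2 and 4 against 0.0928, 0.0501, 0.0867 and 0.0512 in WT TRAP 1 to 4. No KO library reached the lowest WT library, and the limma adjusted p was 0.417. Kifbp, a kinesin-binding protein that the files list as 2510003E04Rik, had a 273-base exon at 0.0153, 0.0948, 0.0415 and 0.136 in KO TRAP 1, 2, 4 and 5 against 0.166 to 0.238 in 5 WT TRAP libraries. Its genotypes did not overlap, and the limma adjusted p was 0.589. Wbp1, a WW-domain-binding membrane protein, averaged 0.928 ± 0.023 (n = 3) in KO TRAP and 0.968 ± 0.016 (n = 5) in WT TRAP for its 105-base exon, without overlap. Gnl3l, a nucleolar GTPase, averaged 0.0126 ± 0.0057 in KO TRAP (n = 5) and 0.0270 ± 0.0111 in WT TRAP (n = 4) for its 171-base exon, and its genotypes overlapped. Both had a limma adjusted p of 0.589. For each of these 4 exons the smallest p that the exact permutation test allows is 0.0159 or more.

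The third comparison, KO against WT in input, asked the same of the whole tissue. None of the 195 frame-keeping exons tested was called by limma, where 0% of the 1154 events of all kinds were. An unadjusted p below 0.05 was reached by 6 exons (3.08%), where 3.29% of all events reached it. The genotypes did not overlap for 4 exons, 1 higher and 3 lower in KO (2.05% together), where 3.47% of all events did not. Every adjusted p was 0.973 or higher.

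The 78-base Mbp exon was 1 of these 4, at 0.310 ± 0.019 in KO input (SD, n = 5) and 0.363 ± 0.041 in WT input (n = 3), a log2 odds difference of -0.34 ± 0.15 (SE), and of -0.192 without WT input 1. The exact permutation test gave it p = 0.0357, 2-sided, the smallest that 56 splits allow, not adjusted for the other exons. Arf3, a small GTPase of the Golgi, had a 237-base exon at 0.960, 0.948 and 0.977 in KO input 2, 3 and 4 against 0.932, 0.878 and 0.922 in WT input. Its KO libraries were all above the WT samples. Czib, a zinc-binding protein listed as 0610037L13Rik, had an 87-base exon at 0.0388, 0.0337, 0.0517 and 0.0718 in KO input 1, 3, 4 and 5 against 0.111, 0.0963 and 0.0964 in WT input. Its KO libraries were all below the WT samples, while in TRAP KO averaged 0.182 ± 0.163 (n = 3) and WT 0.062 ± 0.034 (n = 5). Skp1a, the SCF ubiquitin ligase adaptor now named Skp1, had a 144-base exon at 0.988 ± 0.005 in KO input (n = 5) and 0.969 ± 0.013 in WT input (n = 3), with overlap. Prkcb stood at 0.115 ± 0.055 in KO input and 0.224 ± 0.058 in WT input for its 216-base exon, also with overlap.

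The difference between the genotype effects in the 2 RNA kinds was tested as an interaction. None of 317 frame-keeping exons was called by limma, where 0% of the 1787 events of all kinds were, and 15 exons (4.73%) had an unadjusted p below 0.05, where 4.48% of all events had one. The lowest adjusted p was 0.710, reached by Gnl3l and the 114-base exon of Ntan1 among others. For Ntan1, KO stood above WT in TRAP and below it in input, with KO at 0.812 ± 0.063 and WT at 0.878 ± 0.065 in input (n = 3 each). For Kifbp, KO input averaged 0.187 ± 0.037 (n = 5) and WT input 0.135 ± 0.111 (n = 3), where KO was the lower one in TRAP. The WT input values were 0.234, 0.156 and 0.0152, the last of them in WT input 5. In the first sequencing run alone, KO input averaged 0.183 and WT input 0.195, so the higher KO mean in input followed WT input 5.

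Host genes marked as CELF6 CLIP targets in the authors' deposited table held 448 of the 1869 exons (24%), beside 26.3% of all splicing events. In TRAP, none of the 104 exons in such genes was called between KO and WT and 6 (5.77%) had an unadjusted p below 0.05, beside 1 called and 14 (6.64%) of 211 in other genes. Over all splicing events those shares were 5.47% in CLIP target genes and 6.39% in others. In input, 1 of 76 (1.32%) in such genes and 5 of 119 (4.20%) in others had an unadjusted p below 0.05, beside 2.09% and 4.31% of all events. The median absolute difference in mean PSI between KO and WT in TRAP was 0.0072 in CLIP target genes and 0.0085 in the others. Over all splicing events it was 0.0083 and 0.0093 in TRAP. For the frame-keeping exons in input it was 0.0080 in CLIP target genes and 0.0075 in the others. Among the exons named above for their low p between KO and WT in TRAP, those of Rps19, Tpm1 and Wbp1 lie in genes of that list, and those of Zhx1, Wac, Ntan1, Esd, Kifbp and Gnl3l do not. The list names genes, and whether binding fell near an exon was not tested.

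The authors' deposited table gives its own FDR for 315 of these exons in TRAP and 259 in input. None of these was below 0.05, and the lowest were 0.0863 in TRAP, for the Zhx1 exon, and 0.718 in input.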

How the data were processed

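RNA-seq libraries of KO and WT TRAP and input RNA were analysed from the deposited tables. Per the labels, libraries were made with Nugen Ovation 2 and NEBNext Ultra kits, and per the submitters' processing notes reads were trimmed with Trimmomatic and aligned with STAR to mm10. Gene counts were deposited by the authors as raw featureCounts output (1.4.6-p5, per the file headers) and were used here as CPM for levels only. PSI was deposited as a fraction from MISO, and the authors' p-values and FDR per event stand in the same tables. How reads that fit both events of 1 exon were shared is not given in the sources used here.

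PSI was held between 0.01 and 0.99, taken as log2(PSI/(1−PSI)) and tested with limma 3.58.1 (R 4.3.3), with Benjamini-Hochberg adjustment over all splicing events tested and a threshold of 0.05. KO against WT needed 3 libraries per genotype. TRAP against input (the mean of the KO and WT differences) and the interaction came from 1 fit of 4 groups with at least 2 libraries each. This fit did not pair libraries by number. Single exons also had exact permutation tests on mean PSI. The fit was tested on simulated data. PSI differences in the text are first group minus second.

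Members, gene lists and tests were chosen with earlier results of these data known. Exons were named by lowest p in each direction, by largest difference within each list, by largest spread, or after values were seen (exons with a mean PSI between 0.1 and 0.9, and those of Mapt, Vcan, Anks1b, Rtn3 and Eef1b2). Some exons that these rules pick are not reported here. No exon sequences are printed, since no genome was used here. Gene names not in current use were matched to RefSeq symbols. The alternatives tried were other limits on PSI, no log scale, sequencing run as covariate, a replicate block, other minimum library numbers, a trended variance, WT input 2 and 3 apart, 1 event per exon, and each library left out.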

Additional observations from a re-analysis of the deposited data

Results flagged for a closer look

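Among 94 named events, 191 groups of 4 or 5 libraries could be examined for 1 library far from the rest of its group, and 27 groups (14.1%) held one, where chance flags about 1 in 20 groups. Many of the events were named for a wide spread, a low p or values already seen, which favours libraries far from their group, so this share cannot be read against the chance rate. Several also share an exon or a library, so the flags are not independent. KO TRAP 2 accounts for 6 of them and KO TRAP 1 for 4. The causes were not tested.

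Anks1b, a postsynaptic scaffold, has overlapping exons of 72 and 75 bases, read as 3 events that were high together in 2 TRAP libraries. In KO TRAP 3 their PSI was 0.101, 0.0999 and 0.0715, where the other KO TRAP libraries had 0.00663 to 0.0206. In WT TRAP 4 it was 0.299, 0.3 and 0.307, where the other WT TRAP libraries had 0.0117 to 0.0590.

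In KO TRAP 2, the 159-base exon of Mff, a mitochondrial fission factor, was at 0.607 against 0.924 to 0.939. The same library held low values for the 570-base exon of 2610005L07Rik (0.864), for Gnao1 (0.951) and for the 75-base exon of Tcf25 (0.949). It held high values for Gnl3l (0.0223) and the 189-base exon of Meis2 (0.0699). RefSeq lists 2610005L07Rik as a transcribed pseudogene, and its gene counts were near the floor, at 0 to 1.27 CPM in TRAP and 0 to 1.465 CPM in input. In KO TRAP 1, the 123-base Mbp exon was at 0.492 in its second event against 0.0590 to 0.141 in the others, the 117-base exon of Morf4l1 at 0.346 against 0.0992 to 0.162, and an unnamed 1092-base exon over Ndufv3 at 0.115 against 0.00825 to 0.0278. An unnamed 255-base exon over Zmiz1 was low in both libraries numbered KO 1, at 0.356 in TRAP against 0.886 to 0.973 and at 0.337 in input against 0.911 to 0.983.

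In WT TRAP, single libraries stood apart for the 150-base exon of Lphn1 (0.174 in WT TRAP 3), the 99-base exon of Camk2d (0.0858 in WT TRAP 5), the 168-base exon of 2610005L07Rik (0.968 in WT TRAP 5), Arf3 (0.956 in WT TRAP 3) and the 78-base Mbp exon (0.278 in WT TRAP 1). In KO input, they stood apart for Kifbp (0.124 in KO input 3), the 570-base exon of 2610005L07Rik (0.782 in KO input 4), Esd (0.982 in KO input 1), the 129-base exon of Ids (0.121 in KO input 2) and the unnamed 801-base exon in Ncam1 (0.623 in KO input 4).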

How the results depend on the processing

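The count of frame-keeping exons called between KO and WT in TRAP was 1, and it was 0 with PSI held 0.001 or 0.05 from 0 and 1, with untransformed PSI, with the sequencing run as covariate and with the replicate block, 2 with 1 library fewer per group (Zhx1 and Cldn25), and 0 to 1 with each library left out. The TRAP against input count was 0, and it was 1 with PSI held 0.001 from 0 and 1 (a 237-base exon of Eef1b2, limma adjusted p = 0.00772) and with 1 library more per group (1700037H04Rik, 0.0470), and 0 to 1 with each library left out. The Eef1b2 exon had a mean PSI of 0.0022 in KO TRAP, 0.0020 in WT TRAP, 0.0064 in KO input and 0.0103 in WT input. Of these means only that of WT input lay above 0.01, the floor of the main fit. The counts for KO against WT in input and for the interaction stayed at 0 under every alternative run. Of 1362 recomputed values of 56 named results, 1337 kept direction and side of the threshold, 13 lost the call (all Zhx1), 4 gained one (1700037H04Rik) and 8 changed sign. The sign changes were in log2 odds differences between TRAP and input of exons with a mean PSI below 0.1 or above 0.9: Cadm2 (120 bases), -0.06 as reported, 0.175 with PSI held 0.05 from 0 and 1, 0.002 untransformed, and -0.319 to 0.147 with each library left out; Camk2b (129 bases), 0.10, -0.033 with the replicate block, and -0.064 to 0.303; Gabbr1 (135 bases), 0.42 and -0.027, and Hnrnpk (63 bases), 0.46 and -0.003, with PSI held 0.05 from 0 and 1. The cause was not tested. Exons with an unadjusted p below 0.05 numbered 20 for KO against WT in TRAP (10 with PSI held 0.05 from 0 and 1, 31 with 1 library fewer and 11 with 1 library more per group), and 6 in input (16 with 1 library fewer, 13 with the replicate block, 3 to 10 with each library left out). They numbered 23 for TRAP against input (9 with PSI held 0.05 from 0 and 1, 35 with 1 library fewer, 14 with 1 more) and 15 for the interaction (9, 26 and 7 under the same settings, 24 with the replicate block, 8 to 19 with each library left out).

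With the replicate block Zhx1 had an adjusted p of 0.411. Deviations of same-numbered libraries correlated at -0.002 to 0.089 between KO TRAP and KO input, -0.027 to 0.041 between WT TRAP and WT input, -0.038 to 0.10 between KO and WT TRAP, and -0.067 to 0.155 between KO and WT input, where 2 of 4 libraries correlated best with their own number. In no set was every pair above 0.1, and the main fits did not pair libraries by number. Correlations this low, with many missing values, cannot show whether same-numbered TRAP and input libraries came from the same brain. The main limits are the unknown reads per event, the many missing values, and 3 WT input samples.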
